A study of Mus musculus with 12 samples.

Results

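The genes described here encode the chaperones, folding enzymes, degradation factors, stress sensors and stress-induced enzymes of the endoplasmic reticulum (ER) in cultured mouse vascular smooth muscle cells (VSMC). They are 33 named genes of 26301 in the RNA-seq table, chosen by symbol from knowledge of the ER stress response and matched by gene identifier. Earlier results of these data were known when they were chosen. Ero1l was matched through its synonym. Each of the 33 was also listed in the 4 tables of RNA immunoprecipitation sequencing (RIP-seq), which hold 14635 genes for Thoc2 and 14723 for Thoc5 at passage 3, while those of passage 10 hold 13467 and 13233. They were divided by role into 11 lumenal chaperones and cochaperones, 5 genes of disulfide formation, 4 of ER-associated degradation, 6 sensors and transcription factors, and 7 targets of ATF4 and genes of amino acid metabolism. A further list of 50 genes of the same pathways is summarised beside each comparison.

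The study concerned Thoc2 and Thoc5, subunits of the THO complex, which binds nascent mRNA and takes part in its export from the nucleus. Primary VSMC had been isolated by collagenase digestion from aortas of C57BL/6 mice aged 6 weeks and were grown in serum. For RNA-seq, cells of passages 4 to 8 carried a non-targeting hairpin (shNT, 2 libraries) or a hairpin against Thoc5 (shThoc5, 2 libraries), and RNA was taken 4 days after infection. For RIP-seq, cells of passage 3 and of passage 10 each gave 3 libraries, the input and the immunoprecipitates with antibodies to Thoc2 and to Thoc5. Of the 12 samples, 2 chromatin immunoprecipitation libraries were not analysed here. Both silenced libraries bear the same hairpin number, so an effect of that hairpin on other transcripts cannot be told apart from one of Thoc5 loss. Whether aortas were pooled, and whether libraries of a group came from separate cultures, is not given in the labels.

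Proteins that enter the ER are folded by Hspa5 (BiP) and its cochaperones, by the lectin chaperones Calr and Canx, and by disulfide isomerases. Unfolded protein activates 3 membrane sensors. IRE1 (Ern1) splices the mRNA of the transcription factor Xbp1, PERK (Eif2ak3) slows translation and raises Atf4, and Atf6 is cut to release a transcription factor. Xbp1 and Atf6 act on chaperone promoters through the ER stress response elements ERSE and ERSE-II, while Atf4 acts through C/EBP-ATF elements (CARE) on amino acid and stress genes. VSMC make much collagen and elastin, which pass through this machinery.

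Promoter sequences are shown because the 2 branches read different letters, and the chaperone and amino acid groups are compared below. RefSeq promoters of GRCm38.p6 (250 bases before to 50 after the gene start) were at hand for 29 of the 33 genes, not for Hyou1, Manf, Atf6 or Cth. ERSE was searched as CCAAT and CCACG with 9 bases between them, ERSE-II as ATTGG, any base and CCACG, and CARE as TGATGNAAN, each on both strands. No match of one element overlapped that of another. ERSE was found in 8 of 29 genes (27.6%) against 0.137% of 27025 genes with a promoter in the table. ERSE-II was in 2 of 29 (6.90%), Dnajb11 and Herpud1, against 0.0444%. CARE was in 5 of 29 (17.2%), Herpud1, Trib3, Asns, Chac1 and Slc7a11, against 4.50%. The genes were chosen as members of the response that these elements serve, so a share above that of all genes follows in part from the choice. Windows of several genes can overlap, and a match of letters does not show that a factor was bound in these cells. The ERSE matches of the 8 genes follow, each 5′ to 3′ in the direction of the element, with the fixed letters in capitals.
Hspa5: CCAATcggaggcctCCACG
Hsp90b1, upstream match: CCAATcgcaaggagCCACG
Hsp90b1, downstream match: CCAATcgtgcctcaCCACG
Calr: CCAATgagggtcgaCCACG
Canx: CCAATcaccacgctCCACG
Dnajc3: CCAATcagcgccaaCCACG
Creld2: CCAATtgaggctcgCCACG
Pdia6: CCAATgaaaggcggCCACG
Syvn1: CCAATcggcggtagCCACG

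Of these 9 matches, 6 ran along the gene and 3, in Calr, Creld2 and the downstream match of Hsp90b1, ran against it. Their first bases lay between 212 and 44 bases before the gene start. The whole promoters of 3 genes follow, on the strand of the gene, with matched elements in capitals. They are the one of Hspa5 at chr2:34771840-34772139 on the plus strand, with an ERSE, the one of Herpud1 at chr8:94386179-94386478 on the plus strand, with an ERSE-II and a CARE, and the one of Slc7a11 at chr3:50443564-50443863 on the minus strand, with a CARE on each strand.
Hspa5: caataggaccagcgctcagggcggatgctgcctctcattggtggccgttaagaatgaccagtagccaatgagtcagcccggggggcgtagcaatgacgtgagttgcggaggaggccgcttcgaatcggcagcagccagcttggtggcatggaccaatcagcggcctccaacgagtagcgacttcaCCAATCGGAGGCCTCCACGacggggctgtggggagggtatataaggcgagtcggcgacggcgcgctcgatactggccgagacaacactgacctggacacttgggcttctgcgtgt
Herpud1: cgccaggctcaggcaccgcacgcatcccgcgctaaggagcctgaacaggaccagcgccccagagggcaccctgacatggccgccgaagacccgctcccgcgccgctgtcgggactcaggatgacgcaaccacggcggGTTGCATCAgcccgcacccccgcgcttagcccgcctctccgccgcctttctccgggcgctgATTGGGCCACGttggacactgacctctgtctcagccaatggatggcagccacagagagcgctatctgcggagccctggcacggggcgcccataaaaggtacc
Slc7a11: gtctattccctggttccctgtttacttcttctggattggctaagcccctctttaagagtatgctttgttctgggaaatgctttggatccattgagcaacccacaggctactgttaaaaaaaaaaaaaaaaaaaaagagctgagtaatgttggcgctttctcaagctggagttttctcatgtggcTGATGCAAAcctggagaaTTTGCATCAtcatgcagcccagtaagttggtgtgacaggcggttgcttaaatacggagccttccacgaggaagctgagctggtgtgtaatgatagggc

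The RNA-seq libraries held 15819207 to 21037732 counted reads and the RIP-seq libraries 5396291 to 36336141. Thoc5 itself stood at 33.7 and 40.2 CPM (counts scaled to the library total, in RNA-seq after adjustment by a TMM factor) in shNT and 7.25 and 5.66 in shThoc5, a log2 fold change of −2.51 (SE 0.208) with an adjusted p of 0.499 in edgeR and 1.78e-14 in DESeq2. All 8 smooth muscle markers stood at 1 CPM or more in the 4 RNA-seq libraries, with summed levels of 2054 and 4282 CPM in shNT and 1437 and 2393 CPM in shThoc5. Markers of other cells were present as well. Endothelial markers summed to 394 and 639.6 CPM in shNT and 295 and 299 CPM in shThoc5, with 7 of 8 at 1 CPM or more throughout and Kdr below it. Fibroblast markers summed to 1389 and 1410.0 CPM in shNT and 1108 and 1059 CPM in shThoc5 (6 of 8, Dpt below 1 CPM). Adipocyte markers summed to 113 to 146 CPM (4 of 8) and macrophage markers to 14.9 to 21.7 CPM (1 of 8, with Ptprc, Adgre1, Csf1r, Tyrobp and Fcer1g below 1 CPM). Between the 2 libraries of shNT the chi-square over its degrees of freedom was 45.6, and between those of shThoc5 42.9, so both pairs differed beyond sampling noise.

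The 33 genes together took 0.871% and 0.812% of counted reads in shNT, and all 33 passed the filter on low counts. Per kilobase of the deposited gene length, Calr stood highest in shNT at a mean of 508 CPM per kb, before P4hb (449), Pdia3 (399), Hsp90b1 (381) and Hspa5 (328). Canx at 178, Pdia6 at 156 and Atf4 at 129 CPM per kb came next. Atf4 stood above the other transcription factors on this scale, with Xbp1 at 57.6 and Ddit3 at 34.5 CPM per kb. The sensors were lower, with Ern1 at 29.7, Atf6 at 13.9 and Eif2ak3 at 10.4 CPM per kb, and Trib3 at 7.65, Chac1 at 7.72 and Slc7a11 at 2.29 CPM per kb closed the order. Cth, for which no length was used here, stood at 0.560 to 0.875 CPM. The spans of Hspa5, Pdia3, Pdia4, Pdia6 and Syvn1 overlap those of Rabepk, Catsper2, Mir704, Atp6v1c2 and Mrpl49, and that of Ddit3 overlaps Mbd6 and Mars1, so reads of these 6 genes are uncertain.

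The first comparison asked how these transcripts differed after silencing of Thoc5. In the fit with the group as its only term none of the 33 passed the test, while most lay lower in the silenced libraries. That fit did not call Thoc5 itself either (adjusted p = 0.499 in edgeR), so a gene without a call is not shown to be unchanged. A fit with the replicate number as a further term is given below, where the dependence on processing is described. Hspa5, Calr, Canx and Manf among the chaperones, and P4hb among the isomerases, had the lower means in shThoc5 with no overlap between groups, and Herpud1 was the only gene higher in both silenced libraries than in both controls. In all, 27 of 33 had a log2 fold change below 0 and 6 above, with a median of −0.22 and a range from −0.70 to 0.23, where the median of all 13569 tested genes was 0.01. The edgeR quasi-likelihood test with Benjamini-Hochberg adjustment called 0 of 33 (0.00% of all genes were called), and limma-voom (0.00% of all genes) and DESeq2 (0.284% of genes called lower and 0.100% higher) also called 0 of 33. At an unadjusted p under 0.05 stood 3 of 33, against 4.80% of all genes. In 15 of 33 both silenced libraries lay below both controls, against 16.4% of all genes, and in 1 of 33 both lay above, against 16.2%. In bulk RNA, fewer cells of a type and less RNA per cell cannot be told apart. The endothelial and fibroblast sums were also lower in both silenced libraries than in both controls. Smooth muscle markers were lower after silencing within each replicate number too, though their groups overlapped. Their sum went from 2054 to 1437 CPM within number 1 and from 4282 to 2393 CPM within number 2. The part of these 3 marker sums in the values of the 33 genes was not tested.

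All 11 lumenal chaperones and cochaperones had a log2 fold change below 0, with a median of −0.30, and 8 of the 11 lay lower with no overlap between the groups (16.4% of all genes). Hspa5, the Hsp70 of the ER lumen, stood at 853 and 861 CPM in shNT and 701 and 564 CPM in shThoc5. The controls lay close together and both silenced libraries lay below them, with means of 857 ± 5.88 and 633 ± 97.0 CPM (SD, n = 2) and a log2 fold change of −0.44 (SE 0.181, adjusted p = 1.00 in edgeR). Canx, the membrane-bound lectin chaperone, had 14232 and 15409 reads in shNT and 11118 and 7313 reads in shThoc5, or 764 ± 11.5 and 498 ± 60.8 CPM (SD, n = 2). The groups lay apart by more than the spread within them, with a log2 fold change of −0.62 (SE 0.170, adjusted p = 1.00). Calr, its soluble counterpart, stood at 820.5 and 1152 CPM in shNT and 671 and 601 CPM in shThoc5. The controls differed from each other by more than the silenced libraries did, and the log2 fold change was −0.63 (SE 0.220, adjusted p = 1.00).

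Manf, a small secreted protein that binds Hspa5, stood at 117 and 96.9 CPM in shNT and 81.1 and 67.7 CPM in shThoc5 (log2 −0.52, SE 0.173, adjusted p = 1.00 in edgeR). Canx, Manf and Calr were the 3 genes at an unadjusted p under 0.05. Hsp90b1, the Hsp90 of the ER, stood at 1181 and 919.8 CPM in shNT and 1027 and 685 CPM in shThoc5. Its groups overlapped, as did those of the Hspa5 cochaperone Dnajb9 (73.1 and 52.7 against 58.8 and 49.4 CPM) and of Sdf2l1. Hyou1, which exchanges the nucleotide of Hspa5, had a log2 fold change of −0.31, and Dnajb11, Dnajc3 and Creld2 lay between −0.20 and −0.13.

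Of the 5 genes of disulfide formation, 4 had a log2 fold change below 0 (median −0.18). P4hb and Pdia3 lay lower with no overlap between the groups (16.4% of all genes). P4hb, a disulfide isomerase that is also a subunit of collagen prolyl 4-hydroxylase, stood at 1273 and 1006 CPM in shNT and 896 and 503 CPM in shThoc5. It had the lowest log2 fold change of the 33 genes at −0.70, with an SE of 0.313 and an adjusted p of 1.00 in edgeR. Its silenced libraries differed from each other by more than the controls did. Pdia6 stood at 394 and 269.6 CPM in shNT and 313 and 169 CPM in shThoc5, with overlapping groups and a log2 fold change of −0.46. Ero1l, the oxidase that recharges the isomerases, was on the other side at 0.18 (SE 0.228), from 57.3 and 72.4 CPM in shNT and 60.2 and 86.4 CPM in shThoc5.

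ER-associated degradation returns misfolded proteins to the cytosol through a ubiquitin ligase made of Syvn1 and Sel1l. Its 4 genes had a median log2 fold change of −0.09 with 2 below 0. Herpud1, which organises that ligase, stood at 55.1 and 50.4 CPM in shNT and 64.3 and 59.6 CPM in shThoc5 (log2 0.23, SE 0.141, adjusted p = 1.00 in edgeR). Edem1, which delivers glycoproteins to degradation, lay on the other side, with 110.3 and 115 CPM in shNT and 85.2 and 98.0 CPM in shThoc5 (log2 −0.30, SE 0.146). Sel1l and Syvn1 overlapped between groups, at −0.22 and 0.03.

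Of the 6 sensors and transcription factors, 5 had a log2 fold change below 0 (median −0.21). Ern1 stood at 128 and 108 CPM in shNT and 102 and 77.9 CPM in shThoc5 (log2 −0.39, SE 0.192, adjusted p = 1.00 in edgeR), and Xbp1, whose mRNA it splices, lay at −0.27. Both were lower in both silenced libraries than in both controls, as were 16.4% of all genes. Atf4 stood at 183 and 262 CPM in shNT and 149 and 203 CPM in shThoc5, so that the libraries overlapped. Ddit3, the proapoptotic factor CHOP, stood at 27.2 and 32.8 CPM in shNT and 22.7 and 34.0 CPM in shThoc5. Atf6 and Eif2ak3 differed by less than the spread between libraries, at 0.03 (SE 0.148) and −0.16 (SE 0.179).

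Of the 7 ATF4 targets and amino acid genes, 5 had a log2 fold change below 0 (median −0.27). Asns, which makes asparagine, stood at 33.7 and 41.2 CPM in shNT and 22.5 and 31.1 CPM in shThoc5 (log2 −0.49, SE 0.215), and Trib3, a pseudokinase that restrains Atf4, at 18.5 and 12.9 CPM against 12.0 and 9.39 CPM (log2 −0.55, SE 0.259), both with an adjusted p of 1.00 in edgeR. These 2 lay lower with no overlap between the groups, as did 16.4% of all genes. Psat1 and Phgdh, enzymes of serine synthesis, had 60.0 and 44.1 CPM in shNT replicate 2, above the other 3 libraries, which ranged from 33.1 to 34.0 CPM for Psat1 and from 27.2 to 32.8 CPM for Phgdh. Slc7a11, the cystine transporter, stood at 35.1 and 7.12 CPM in shNT and 41.0 and 6.34 CPM in shThoc5, so that its libraries split by replicate number and not by group. Chac1 and Cth lay at −0.22 and 0.06.

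**Figure D1:**
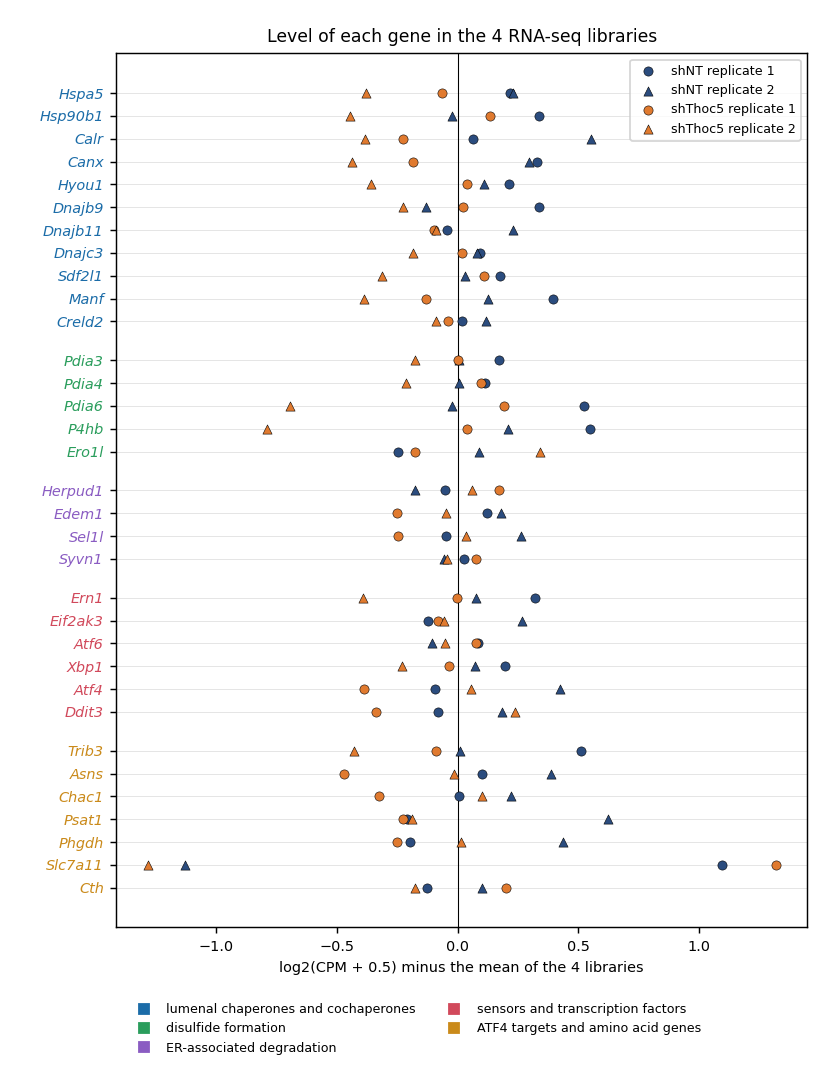
Level of each of the 33 genes in the 4 RNA-seq libraries, as log2(CPM + 0.5) minus the mean of the 4, with shNT in blue, shThoc5 in orange, replicate 1 as circles and replicate 2 as triangles. Canx and Hspa5 show both orange points left of both blue points, while Slc7a11 shows both circles far right of both triangles.

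Within replicate number 1 alone, 26 of 33 genes lay below 0 (median log2 ratio of shThoc5 to shNT −0.20), and within number 2 alone 28 of 33 did (median −0.32). Pdia6 stood at −0.33 within number 1 and −0.67 within number 2, Canx at −0.51 and −0.73, and Calr at −0.29 and −0.94. Of the 32 genes listed in the authors' deposited table, 27 were below 0 with a median of −0.24, and 0 of 32 had an unadjusted p under 0.05. Of the 50 other genes of the pathways, 37 lay below 0 (median −0.14), 0 were called by edgeR, limma-voom or DESeq2, 5 were at an unadjusted p under 0.05 (4.80% of all genes), and 18 lay lower (16.4%) and 5 higher (16.2%) with no overlap between groups. The 5 at an unadjusted p under 0.05 were Slc7a5, Fkbp14, Sec24d and Txndc5, at log2 fold changes of −0.92, −0.77, −0.51 and −0.64, and Ddit4 at 0.39. Slc7a5, a transporter of large amino acids, stood at 33.7 and 46.2 CPM in shNT and 22.8 and 19.3 CPM in shThoc5 (adjusted p = 1.00 in edgeR). Txndc5 and Fkbp14, a disulfide isomerase and a prolyl isomerase of the ER, have spans that overlap Bmp6 and Plekha8.

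The replicate number split several of these genes more than the hairpin did, and the labels do not say what the numbers mark. With the group as a term, edgeR called 9 of 33 genes between number 2 and number 1, against 17.6% of all genes. Of them 5 fell, against 10.8% of all genes, and 4 rose, against 6.80%. DESeq2 called 4 lower (4.70% of all genes) and 1 higher (2.14%), and limma-voom called 8 of 33 (16.4%). Slc7a11 fell by 2.49 on the log2 scale in number 2 (SE 0.149, adjusted p = 1.24e-05 in edgeR), with log2 ratios of −2.23 within shNT and −2.60 within shThoc5. The other 4 that fell were chaperone and isomerase genes. Pdia6 fell by 0.72 (SE 0.114, adjusted p = 0.00266), P4hb by 0.59 (SE 0.125, adjusted p = 0.0117), Hsp90b1 by 0.47 (SE 0.103, adjusted p = 0.0127) and Dnajb9 by 0.36 (SE 0.105, adjusted p = 0.0411), all in edgeR.

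The 4 that rose in number 2 were Atf4, Ddit3, Phgdh and Ero1l. Atf4 rose by 0.48 (SE 0.0993, adjusted p = 0.0100 in edgeR), and its target Ddit3 by 0.42 (SE 0.126, adjusted p = 0.0448). Phgdh rose by 0.46 (SE 0.126, adjusted p = 0.0340), and Ero1l, which Ddit3 induces, by 0.43 (SE 0.102, adjusted p = 0.0183). Of the other ATF4 targets and amino acid genes, Slc7a11 passed in the opposite direction, as given above. Others stood on either side without passing, with Asns at 0.38 (adjusted p = 0.0505), Psat1 at 0.45 (adjusted p = 0.0910) and Trib3 at −0.44 (adjusted p = 0.0654). Hspa5 (−0.15) and Calr (0.17) were not called, with adjusted p of 0.373 and 0.448. The smooth muscle sum given above was also higher in number 2 within each group, and its part in these values was not tested.

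Of the 50 other pathway genes, edgeR called 15 between the numbers (17.6% of all genes), 9 lower (10.8%) and 6 higher (6.80%) in number 2. Atf3, a stress-induced transcription factor downstream of Atf4, stood at 4.18 and 5.16 CPM in number 1 and 9.42 and 20.2 CPM in number 2 (log2 1.60, adjusted p = 0.00110 in edgeR). Mthfd2, a mitochondrial folate enzyme and ATF4 target, rose by 0.62 (adjusted p = 0.0229). Wfs1, an ER membrane protein, fell by 0.90 (adjusted p = 0.00125), from 35.8 and 35.9 CPM in number 1 to 20.6 and 17.8 CPM in number 2. Sec61b, a subunit of the translocation channel, fell by 0.85 (adjusted p = 0.00189). Cebpb and Pdia5 fell by 0.65 (adjusted p = 0.0407) and 0.63 (adjusted p = 0.00642).

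**Figure D2:**
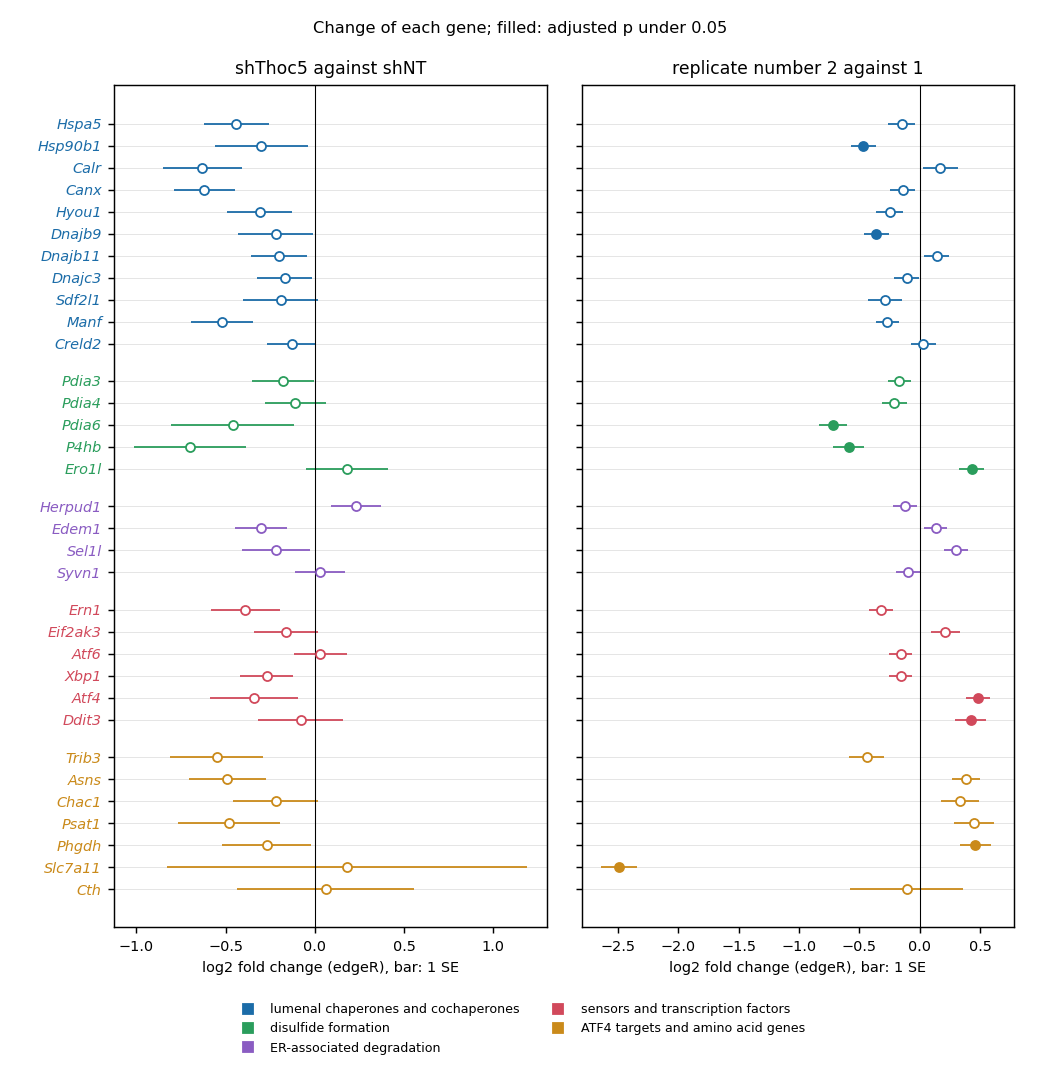
The log2 fold change of each of the 33 genes with a bar of 1 SE, on the left for shThoc5 against shNT and on the right for replicate number 2 against 1, with filled points at an edgeR adjusted p under 0.05. No point on the left is filled and 27 of 33 lie below 0, while 9 points on the right are filled, Slc7a11 farthest out at −2.49.

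The second question was which of these transcripts were recovered with Thoc2 and Thoc5. Recovery is given on the log2 scale, as immunoprecipitate over input, with 0.5 CPM added to either. Enriched means a log2 ratio of 1 or more with 10 or more reads and 1 CPM in the immunoprecipitate, and depleted means −1 or less with 10 or more input reads. With 1 library of each kind there is no replicate check and no p-value, the exact 95% intervals in parentheses take in counting error alone, and both antibodies of a passage share an input. Ern1 stood out as enriched in all 4 immunoprecipitates, Dnajb9 was depleted in all 4, and the large chaperone transcripts lay mostly below their input.

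All 33 genes were detected in each immunoprecipitate. Enriched at passage 3 were 2 with Thoc2 (19.8% of all detected genes) and 1 with Thoc5 (24.6%), and at passage 10 1 with Thoc2 (12.6%) and 1 with Thoc5 (6.12%). Depleted at passage 3 were 3 with Thoc2 (21.1% of all genes) and 3 with Thoc5 (13.7%), and at passage 10 were 1 (7.35%) and 1 (5.22%). The median log2 ratio of the 33 was −0.47 with Thoc2 at passage 3, where that of all detected genes was −0.04. It was 0.05 against 0.28 with Thoc5 at passage 3, −0.23 against 0.00 with Thoc2 at passage 10 and −0.07 against 0.06 with Thoc5 at passage 10. The value for Thoc5 at passage 3 turned to −0.21 with TMM scaling factors and to −0.24 when the median of all genes was set to 0. Relative to the median of all genes the 33 lay at −0.43, −0.24, −0.23 and −0.12 in that order.

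Among the sensors, Ern1 had 205 input reads, 129 with Thoc2 and 102 with Thoc5 at passage 3. At passage 10 it had 120, 318 and 157 reads. The ratios to input were 4.24 (3.37 to 5.31) and 3.03 (2.36 to 3.85) at passage 3 for Thoc2 and Thoc5, then 3.09 (2.50 to 3.85) and 2.66 (2.08 to 3.40) at passage 10. All 4 intervals lay above a ratio of 2. The authors' deposited lists of selected genes also held Ern1, with a score of 0.682 for Thoc2 at passage 3, 1.00 for Thoc2 at passage 10 and 0.848 for Thoc5 at passage 10. The list for Thoc5 at passage 3 did not hold it. Eif2ak3 was enriched with Thoc2 at passage 3, at a ratio of 2.22 (1.84 to 2.68). Its log2 ratios in the other 3 were 0.48, 0.87 and 0.74, and the authors' list for Thoc2 at passage 10 held it with a score of 0.404. Atf6, the third sensor, stayed near its input, with log2 ratios of 0.17, 0.13, −0.09 and 0.09.

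The transcription factors lay lower. The log2 ratios of Atf4 were −1.65 with Thoc2 and −1.09 with Thoc5 at passage 3, then −0.99 and −0.66 at passage 10. It was depleted with both antibodies at passage 3. Ddit3 stood at −0.99, −0.68, −0.84 and −0.74 in the same order. Xbp1 was at −0.55 and −0.52 with Thoc2 at passages 3 and 10, and at 0.11 and −0.30 with Thoc5. Of the sensors Ern1 and Eif2ak3 stood above the input in each immunoprecipitate, and Atf4 and Ddit3 stood below it, a contrast that was not tested. Ern1 and Eif2ak3 have lengths of 3976 and 4496 bases, while Atf4, Xbp1 and Ddit3 have 1725, 1800 and 871. Recovery varied with length, as given below.

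The lumenal chaperones and cochaperones had medians of −0.51 (Thoc2) and −0.36 (Thoc5) at passage 3, followed by −0.47 and −0.23 at passage 10. Hspa5 stood at 3060.0 CPM in the input of passage 3, 1725 CPM with Thoc2 and 2329.9 CPM with Thoc5, and at 496, 388 and 474 CPM at passage 10. Each immunoprecipitate lay below its input, at ratios of 0.564 (0.552 to 0.576), 0.761 (0.748 to 0.775), 0.783 (0.758 to 0.808) and 0.955 (0.922 to 0.990). Dnajb9 stood at 108, 40.0 and 37.8 CPM at passage 3 and 24.9, 10.5 and 12.1 CPM at passage 10. Its ratios of 0.372, 0.351, 0.424 and 0.485 were the lowest of the 33 in every immunoprecipitate except that with Thoc2 at passage 3, where Atf4 lay lower at 0.318. Manf was depleted with Thoc2 at passage 3 (log2 −1.29) and stood at −0.90, −0.86 and −0.63 in the others. Hyou1 was the exception, above its input in all 4, at log2 ratios of 0.31, 0.66, 0.41 and 0.67.

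The genes of disulfide formation had medians of −0.74, −0.22, −0.36 and −0.05, with Pdia3 lowest with Thoc2 at passage 3 (log2 −0.99) and Ero1l highest with Thoc5 at passage 10 (0.33). The medians of the 4 degradation genes lay above input, at 0.05, 0.58, 0.35 and 0.32. Edem1 stood at 0.06, 0.55, 0.43 and 0.55, Sel1l at 0.28, 0.61, 0.33 and 0.29, and Syvn1 at 0.04, 0.76, 0.37 and 0.34, while Herpud1 lay between −0.42 and 0.05. The ATF4 targets and amino acid genes lay at −0.52, 0.07, 0.00 and 0.04. Cth was depleted with Thoc5 at passage 3, with only 15 reads in the immunoprecipitate against 201 in the input, a ratio of 0.454 (0.249 to 0.767). Of the 50 other pathway genes, enriched at passage 3 were 0 with Thoc2 (19.8% of all detected genes) and 5 with Thoc5 (24.6%). At passage 10 they were 0 (12.6%) and 0 (6.12%). Depleted in the same order were 9 (21.1% of all genes), 4 (13.7%), 6 (7.35%) and 3 (5.22%).

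**Figure D3:**
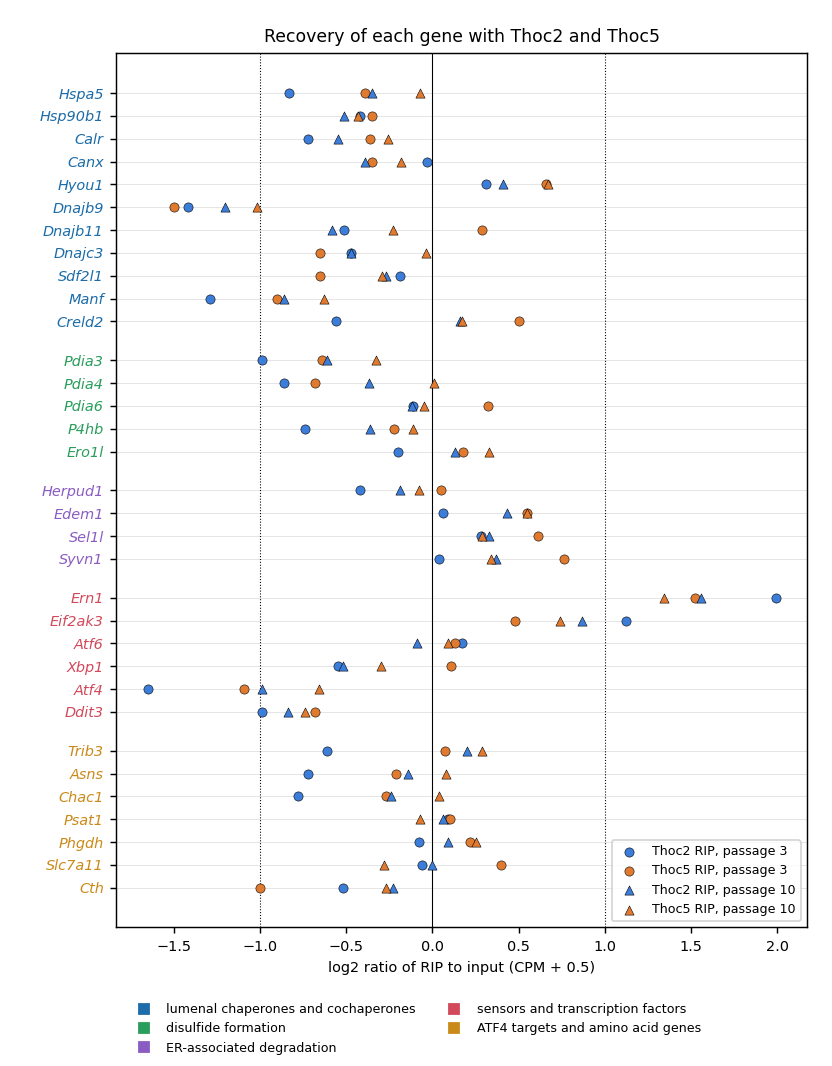
The log2 ratio of immunoprecipitate to input for each of the 33 genes, with Thoc2 in blue, Thoc5 in orange, passage 3 as circles and passage 10 as triangles, and dotted lines at −1 and 1. All 4 points of Ern1 lie right of the dotted line at 1 and all 4 of Dnajb9 left of the line at −1.

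Recovery varied with gene length among these genes as it did among all genes. Over the 32 genes with a deposited length, Spearman's rho between length and log2 ratio was 0.61 with Thoc2 and 0.45 with Thoc5 at passage 3, then 0.43 and 0.44 at passage 10. Over all genes with a length it was 0.57, 0.41, 0.61 and 0.58. These are descriptions across genes, which share libraries and are not replicates. The 16 genes at or under the median length of 2497 bases had medians of −0.66, −0.24, −0.25 and −0.08, and the 16 longer ones had medians of −0.05, 0.23, −0.05 and 0.03. Recovery also varied inversely with the input level (rho of −0.48, −0.46, −0.54 and −0.45), where over all genes rho was −0.41, −0.39, −0.15 and −0.12. The input is also the denominator of the ratio, so a negative rho is partly built in. Ern1, with a length of 3976 bases, and Canx, with 4289, are of like length and stood at 1.99 and −0.03 with Thoc2 at passage 3. Their input levels there were 5.64 and 491 CPM. Eif2ak3, with 4496 bases and an input level of 12.7 CPM, stood between them at 1.12. The part of length and level in these ratios was not tested.

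**Figure D4:**
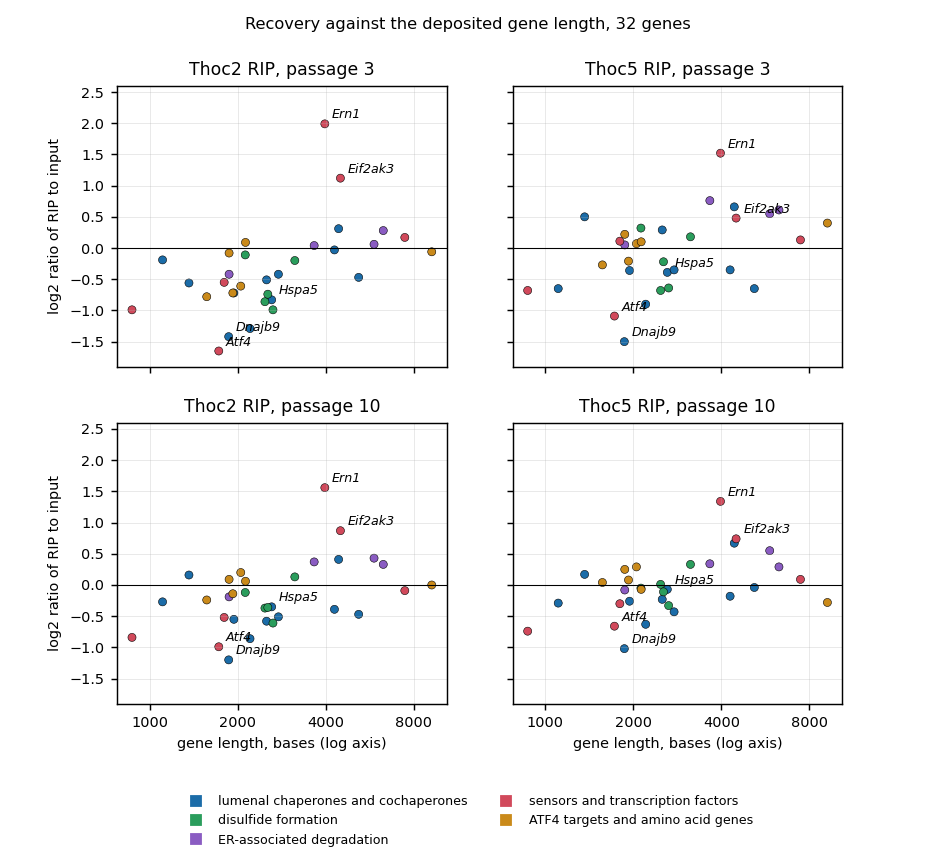
The log2 ratio of immunoprecipitate to input against the deposited gene length in bases (log axis) for 32 genes, in 4 panels by antibody and passage, coloured by role. Points rise to the right in each panel, with Ern1 above and Dnajb9 and Atf4 below the genes of like length.

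The third comparison set the input of passage 10 against that of passage 3, with 1 library each. Most chaperones and folding enzymes were lower at passage 10. Slc7a11, Hspa5 and Ero1l differed most of the 33, while the serine synthesis genes Psat1 and Phgdh were higher. Past a 2-fold difference, 9 of 33 were lower (17.0% of all genes) and 2 were higher (31.0% of all genes). The median log2 ratio of the 33 was −0.42, and that of all 13459 genes was 0.43. With the median of all genes set to 0 the 33 stood at −0.84, with 13 lower and 1 higher, and 23.2% of all genes were then lower and 19.8% higher. With TMM factors they stood at −0.90, again with 13 lower (24.3% of all genes) and 1 higher (18.8%). The 33 genes took 1.48% of the reads of the passage 3 input and 0.820% at passage 10.

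Hspa5 stood at 3060.0 CPM at passage 3 and 496 CPM at passage 10, a 6.17-fold lower level (6.04 to 6.30, counting error only). It was the most abundant of the 33 at passage 3 by CPM, and at passage 10 it stood below P4hb, Calr, Hsp90b1, Pdia3 and Atf4. The cochaperone Dnajb9 went from 108 to 24.9 CPM (4.33-fold lower, 3.93 to 4.77), Manf from 477 to 194 CPM, Hyou1 from 279 to 119.8 CPM and Sdf2l1 from 52.8 to 25.8 CPM. Calr and Hsp90b1 lay just under the 2-fold threshold at log2 ratios of −0.92 and −0.92, while Canx and Dnajc3 were near 0 at −0.04 and −0.07. Dnajb11 was the only one of the 11 above 0, at 0.70, and the median of the group was −0.92 (−1.35 with the median of all genes at 0).

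All 5 genes of disulfide formation were below 0 (median −0.98). Ero1l went from 153 to 27.4 CPM, 5.58-fold lower (5.10 to 6.11), and Pdia4 from 457 to 184 CPM. P4hb, at 1946 and 1456 CPM, had the smallest difference of the group at −0.42. Of the degradation genes, the ligase Syvn1 went from 184 to 51.3 CPM, 3.59-fold lower (3.36 to 3.85), while Sel1l, its partner, stood at 112 and 133 CPM.

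The sensors and transcription factors were close to their passage 3 levels, none past a 2-fold difference. Ern1 stood at 5.64 and 6.30 CPM, Atf4 at 791 and 681 CPM, Xbp1 at 89.8 and 124 CPM and Ddit3 at 124 and 154 CPM. The median of the group was 0.35, which turned to −0.08 with the median of all genes at 0 and to −0.13 with TMM factors. The ATF4 targets split. Psat1 went from 45.7 to 176 CPM, 3.85-fold higher (3.63 to 4.09), and Phgdh from 63.7 to 136 CPM, 2.13-fold higher (2.02 to 2.26), though Phgdh stood at only 0.66 on the log2 scale with the median of all genes at 0. Trib3 lay just under 2-fold higher at 23.4 and 45.6 CPM. Slc7a11 went from 20.8 to 1.79 CPM, with 754 and 34 reads, an 11.6-fold lower level (8.24 to 16.9). The group's median was 0.11, and −0.31 with the median of all genes at 0.

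All 8 genes with an ERSE in the promoter window shown above were below 0 at passage 10 against passage 3, with a median of −0.70, where 36.7% of all genes were below 0. Of the 21 genes whose window lacks these letters 10 were below 0, with a median of 0.10. All of the 8 but Syvn1 are chaperone or disulfide genes, while the 21 take in sensors and ATF4 targets. The split by element is thus partly one by role. The chaperone and disulfide genes among the 21 stood at −2.46 (Ero1l), −2.09 (Dnajb9), −1.31 (Pdia4), −1.02 (Sdf2l1), −0.98 (Pdia3) and −0.42 (P4hb). Dnajb11 alone of these was above 0, at 0.70. A link to the element was not tested. Past 2-fold lower were 2 of the 8 and 5 of the 21, against 17.0% of all genes. The 2 genes with an ERSE-II were both above 0, with a median of 0.40. That median and the one of the 21 genes lay under the median of all genes, 0.43, so both turn below 0 with the median of all genes at 0. Of the 50 other pathway genes 49 were detected, with a median of −0.26. Of them 7 were past 2-fold lower (17.0% of all genes) and 4 higher (31.0%). Atf3 was at −2.34 and Creb3l1, a membrane-bound transcription factor of the Atf6 type, at −1.58, while Pycr1 and Aldh18a1, of proline synthesis, were at 2.24 and 1.14, and Shmt2, of serine and glycine metabolism, was at 1.26. The span of Shmt2 overlaps that of Ndufa4l2.

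Markers of other cells differed between the inputs as well. From passage 3 to passage 10 the macrophage sum went from 223 to 54.6 CPM (8 and then 4 of 8 markers at 1 CPM or more, with Ptprc, Adgre1, Tyrobp and Fcer1g unlisted at passage 10). The fibroblast sum went from 1500.4 to 279 CPM (8 and then 7 of 8), the endothelial sum from 210.2 to 78.8 CPM (7 and then 5 of 8) and the adipocyte sum from 195 to 48.6 CPM (5 and then 3 of 8, with Adipoq, Plin1 and Cidec unlisted at both). The smooth muscle sum was 5154 and 7169 CPM (8 and then 7 of 8). Their part in the differences between the inputs was not tested. With 1 library a passage, the passage cannot be told apart from the culture or the library.

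**Figure D5:**
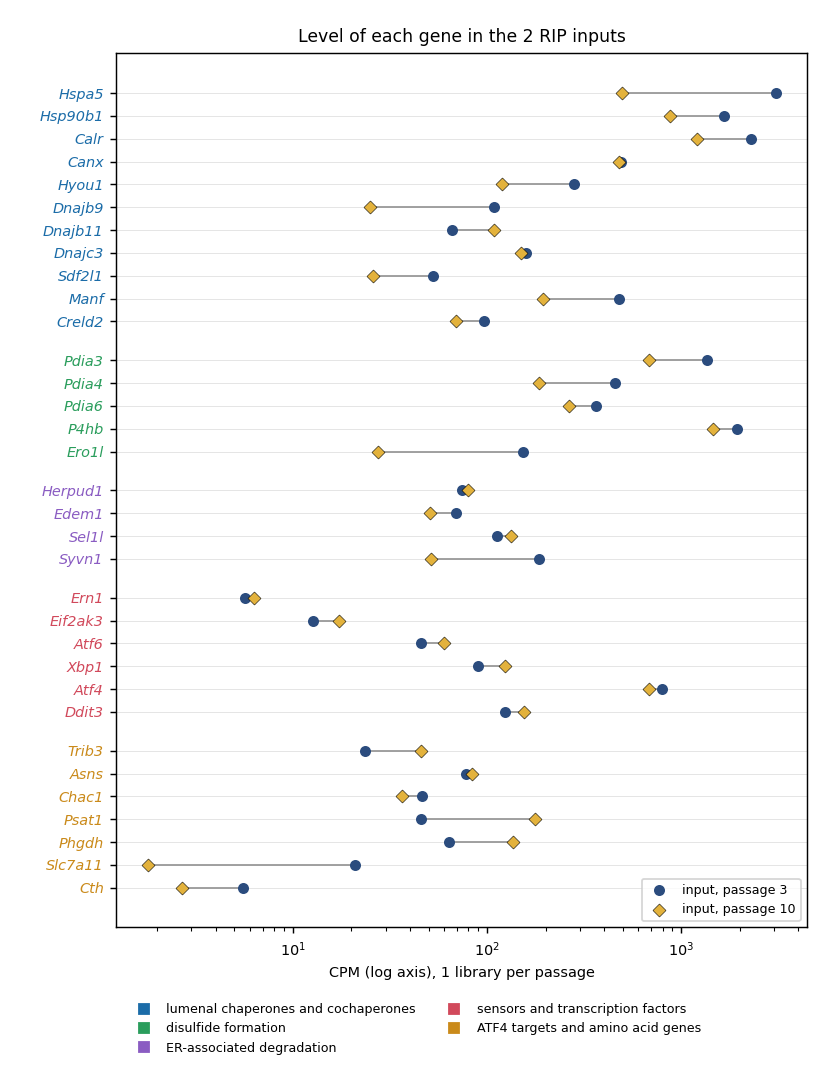
Level of each of the 33 genes in the RIP-seq inputs in CPM on a log axis, passage 3 as blue circles and passage 10 as yellow diamonds, joined by a line. Hspa5, Ero1l, Dnajb9 and Slc7a11 have long lines with the diamond on the left, and Psat1 and Phgdh have the diamond on the right.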

How the data were processed

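Gene counts of 4 RNA-seq libraries and of 6 RIP-seq libraries were used as deposited. Per the submitters' processing notes, the authors used bcl2fastq, Subread, featureCounts, limma, MACS2 2.1.1, HOMER 4.8.3 and the mm9 build, with no role or order given. Per the labels' protocols, libraries were made with TruSeq RNA kits. Whether strand was used in counting is unstated in what was used here. In the authors' deposited comparison table each gene has a log2 fold change, p-value and length, and their deposited lists of selected RIP-seq genes hold a score per gene of at least 0.3. Genes in the RIP-seq tables have 11 or more reads, input and immunoprecipitate summed.

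RNA-seq counts were compared with edgeR 4.0.16 in R 4.3.3 (quasi-likelihood test, TMM factors, filterByExpr) over all tested genes, adjusted by Benjamini-Hochberg and read at 0.05. The model held the group alone for shThoc5 against shNT, and group and replicate number for number 2 against 1. RNA-seq CPM are scaled by TMM-adjusted totals, RIP-seq CPM by library totals. DESeq2 1.42.0, limma-voom (limma 3.58.1), other scalings and filters, and the omission of each library were alternatives, and the code was tested on simulated data. The labels do not say that a group's libraries are of separate animals or cultures, so p-values reflect only how far these libraries spread, possibly for technical reasons. For 2 libraries against 2, an exact two-sided permutation test cannot go below 0.333. The members, the further 50 genes and the marker lists were chosen with earlier results of these data known. Genes were named by role and as the values of their group required, every one of the 33 being given. Sequences are from RefSeq (GRCm38.p6), and all other coordinates were left out.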

Additional observations from a re-analysis of the deposited data

How the results depend on the processing

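For shThoc5 against shNT, 0 of 33 genes were called by edgeR, DESeq2 and limma-voom, in each omission of a library and under the other scalings and filters tried. With a replicate block (number as a term), edgeR called 6, all lower: Canx (−0.62, adjusted p = 0.0159), P4hb (−0.75, 0.0159), Manf (−0.52, 0.0222), Pdia6 (−0.50, 0.0436), Calr (−0.61, 0.0470) and Asns (−0.49, 0.0483), where 2.45% of all genes were called lower. The numbers are only shared numbers, as the labels do not say what they mark. Deviations of same-numbered libraries correlated across genes at 0.635, and principal component 1 (61% of variance) set number 1 apart from number 2. Over the omissions the median ranged from −0.28 to −0.18 and the count below 0 from 26 to 30. Over the same omissions Atf6 ranged from −0.06 to 0.12, Slc7a11 from −1.74 to 1.74 and Ero1l from −0.11 to 0.40. Atf6 and Slc7a11 turned below 0 when shNT replicate 2 or shThoc5 replicate 1 was left out, and Ero1l without shThoc5 replicate 2. These omissions leave the numbers unequal between the groups.

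Between the numbers, 9 genes became 5 with DESeq2 and 1 (Slc7a11) with no group term. Ern1 (adjusted p = 0.0502) passed with library totals (0.0324) and with both other low count filters (0.0305 and 0.0462). An omission leaves no residual freedom there and gives values with no test. In RIP-seq, leaving ribosomal RNA and mitochondrial genes out of the totals gave 5 depleted with Thoc2 at passage 3 and 2 at passage 10, and adding 2 CPM gave 0 depleted with Thoc5 at passage 10. The median with Thoc5 at passage 3 was −0.21 with TMM factors and −0.24 with the median of all genes at 0. Between inputs, these scalings gave 1 gene higher each and medians of −0.90 and −0.84. The cause of these moves was not tested. Counts of 1.79 CPM (Slc7a11) and under 1 CPM (Cth) limit what these libraries can show of both genes.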

Other observations

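The RNA-seq and RIP-seq tables were counted separately and come from cells of other passages, so levels across them are given as values only. Ern1 averaged 116 CPM in shNT against 5.97 CPM in the RIP-seq inputs, by library totals, a log2 difference of 4.17. This lay at percentile 99.6 of 12100 genes. Atf4, Ddit3 and Chac1 were at the other end, with log2 differences of −1.75, −2.22 and −1.76 (percentiles 4.79, 2.61 and 4.75). Hspa5 averaged 842 CPM in shNT against 1778 CPM in the inputs. The inputs lay on either side of the shNT level, at 3060.0 CPM at passage 3 and 496 CPM at passage 10.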
